A study of Zea mays with 4 samples.

Results

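The glossy genes of maize are named for mutants whose young leaves lose their dull wax bloom, shine, and hold beads of water. The 5 glossy genes described here, gl1, gl2, gl8, gl13 and gl15, were taken by locus identifier from a table of 46430 genes. The list was chosen with earlier results of these data known, and all 5 of its genes are described whatever their values. All 5 passed the filter on low counts that left 23169 genes to test. Counts came from RNA-seq of whole wild-type seedlings of the inbred line B73, raised for 9 days in potting soil, at 25 to 28 °C under days of 16 h and nights of 8 h, in a study of maize nucleosomes under cold stress. The control group then stayed at that temperature, and the cold group spent 24 h at 4 °C. Each group has 2 libraries, taken from 10 plants aged 10 days. The labels do not say how those plants were divided between libraries or whether they were grown apart, so the p-values below rest on a spread between samples that may be technical. In the names of the alignments both control libraries carry 1 shared number and each cold library its own, and 1 cold name has an added word. What these marks mean is not known here. The control libraries did differ from each other beyond sampling noise, at a chi-square of 11.3 per degree of freedom over genes, and the cold ones at 25.0.

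Cuticular wax is made in the epidermis. Fatty acids are lengthened there by an elongase complex on the endoplasmic reticulum, the very-long-chain products are turned into aldehydes, alcohols and esters, and ABC transporters help move them across the plasma membrane to the surface. In maize the juvenile leaves of the seedling carry this wax bloom and the later adult leaves do not, and the change between these kinds of leaf is under developmental control. The glossy genes cover several of these steps. gl8 encodes the ketoacyl reductase of the elongase, gl2 an acyltransferase-like protein of the BAHD family that acts in elongation, and gl1 a membrane protein related to the WAX2 and ECERIFERUM proteins of Arabidopsis. gl13 encodes an ABC transporter and gl15 a transcription factor of the APETALA2 family that keeps leaf epidermis juvenile.

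The table carries identifiers only, and the symbols are those given with the list of members. A RefSeq gene table of another assembly (Zm-B73-REFERENCE-NAM-5.0) names 4 of the 5 genes, all but gl13, and places all 4 on the same chromosome as the identifiers here. Positions are those of B73 RefGen_v4. gl8 is Zm00001d017111, on the minus strand of chromosome 5 (185769105 to 185772037), with 3 exons and 2035 exonic bases once overlapping exon records are merged. gl2 is Zm00001d002353, on the minus strand of chromosome 2 (10743536 to 10746206), the shortest of the 5 in exonic sequence with 2 exons and 1266 bases. gl1 is Zm00001d020557, plus strand of chromosome 7 (122228805 to 122234943), with 8 exons and 2709 bases. gl13 is Zm00001d039631, on the plus strand of chromosome 3 (9567326 to 9577428), and is the longest, with 20 merged exons and 6053 bases drawn from 254 exon records. gl15 is Zm00001d046621, on the plus strand of chromosome 9 (99138564 to 99141663), with 9 exons and 2107 bases. No other annotated gene overlapped any of the 5. The counting rules ignore strand and leave out reads shared by several genes. Whether read pairs that reach into a close neighbour were lost in this way was not tested.

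gl8 and gl1, the elongase reductase and the WAX2-related protein, rose about 2-fold in the cold. gl2, gl13 and gl15 did not pass the test, and none of the 5 was called lower. Thus 2 of 5 were called higher by the quasi-likelihood test of edgeR, at a Benjamini-Hochberg adjusted p under 0.05 over all genes, where 27.0% of all tested genes were called higher and 27.0% lower. With so many genes changed, 2 of 5 is not a departure that can be read from a list of this size. The median log2 fold change of the 5 was 0.13 and that of all tested genes was -0.03. Under library totals alone, 4768 of all genes were called higher and 8188 lower, and under upper-quartile scaling 5199 and 7849, against 6256 and 6259 here.

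For gl8 the control libraries gave 1099 and 809 fragments, against 1376 and 1185 from the cold libraries. Scaled to library size with TMM factors, these are 36.6 and 31.0 CPM (fragments scaled to a common library size) in control and 58.9 and 63.4 CPM in cold. Both cold libraries were above both control libraries, and the groups did not overlap, as was true of 2 of the 5 members in the upward direction and of 38.2% of all tested genes (41.2% downward). The mean went from 33.8 ± 3.96 to 61.2 ± 3.14 CPM (SD, n = 2 each), a 1.81-fold rise with a 95% interval of 1.46 to 2.23. The log2 fold change was 0.85 (SE 0.13, edgeR adjusted p = 0.0014). A close copy of the gene, gl8b, is named in the RefSeq table but could not be tied to an identifier here. Reads that match both copies equally were left out of the counts, so the level of gl8 is uncertain.

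gl2, the other elongation gene, gave 4095 and 4242 fragments in control against 4003 and 2923 in cold. Its scaled levels were 137 and 163 CPM in control and 171 and 156 CPM in cold, so the cold values fell partly inside the control range. The mean was 149.7 ± 18.6 CPM in control and 163.9 ± 10.7 CPM in cold (SD, n = 2 each). The log2 fold change of 0.13 (SE 0.14, edgeR adjusted p = 0.46) has a 95% interval that runs from 0.873-fold to 1.37-fold. Its sign depended on the scaling, at -0.029 with upper-quartile factors and -0.080 with library totals alone.

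gl1 showed the largest change of the 5. Control libraries held 3063 and 2389 of its fragments, and cold libraries 4352 and 3660. These are 102 and 91.7 CPM in control and 186 and 196 CPM in cold. The cold libraries lay within 1.05-fold of each other and both were well above the control pair. The mean rose 1.97-fold, from 96.9 ± 7.38 to 191 ± 6.60 CPM (SD, n = 2 each), with a 95% interval of the log2 fold change from 0.68 to 1.28. The log2 estimate was 0.98 (SE 0.13, edgeR adjusted p = 0.00064). In size this is an ordinary response among the genes called higher. By signed log2 fold change, where every fall ranks below every rise, gl1 stood above 83.5% of all tested genes and gl8 above 80.8%. These signed ranks do not measure size. Among the genes called higher, 57.0% rose more than gl1 and 65.2% more than gl8.

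**Figure D1:**
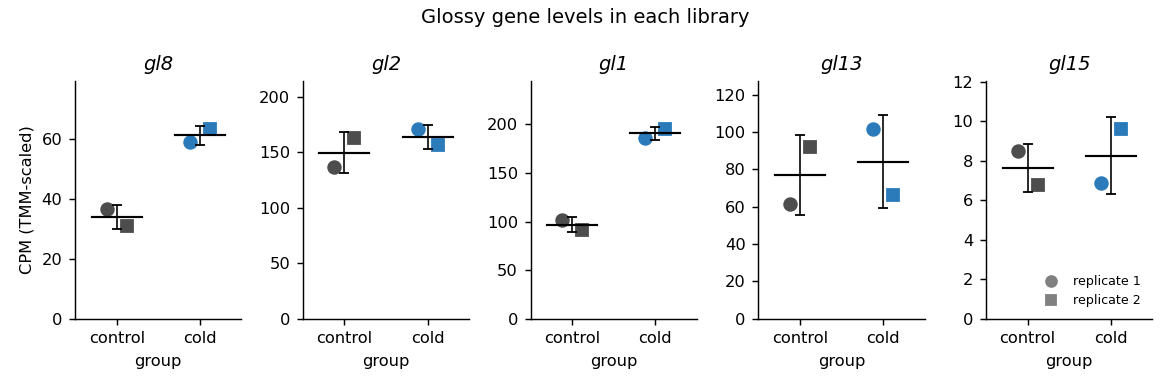
Level of each glossy gene in CPM (TMM-scaled, linear axis from 0) in the 2 control and 2 cold libraries, with circles for replicate 1, squares for replicate 2, a line for the group mean and bars for the SD. Control and cold libraries separate for gl8 and gl1 and overlap for gl2, gl13 and gl15.

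gl13, the transporter gene, varied more between libraries of a group than between groups. The control libraries held 1850 and 2395 fragments and the cold libraries 2377 and 1243, which gave 61.7 and 91.9 CPM in control and 101.8 and 66.5 CPM in cold. One library of each group was low and the other high, and the ranges overlapped. The mean was 76.8 ± 21.4 CPM in control and 84.1 ± 25.0 CPM in cold (SD, n = 2 each). The log2 fold change was 0.13 (SE 0.24, edgeR adjusted p = 0.67), with a 95% interval from 0.741-fold to 1.62-fold. Libraries of the same group differed 1.49-fold in control and 1.53-fold in cold. Among 2205 tested genes within 0.5 log2 CPM of its level, 1.32% differed as much between the control libraries and 3.54% between the cold ones. With at least 1243 fragments in each library, counting error on a single value was at most 2.84%, far below this spread. The log2 fold change was -0.11 without control replicate 1, -0.21 without cold replicate 1, 0.44 without control replicate 2 and 0.42 without cold replicate 2, and no call was made in any of the 4 fits.

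gl15, the regulator, was the least abundant, with 254 and 176 fragments in control against 161 and 180 in cold. Its scaled levels were 8.47 and 6.75 CPM in control and 6.90 and 9.63 CPM in cold, and the groups overlapped. The mean was 7.61 ± 1.21 CPM in control and 8.26 ± 1.93 CPM in cold (SD, n = 2 each). The log2 fold change was 0.11 (SE 0.23, edgeR adjusted p = 0.71), with a 95% interval from 0.742-fold to 1.57-fold. The estimates for gl8 and gl1 lie above it, but the interval of gl8 starts at 1.46-fold and overlaps it. Whether these genes differ in response was not tested. A change within the interval of gl15 was not detectable with these libraries. Its sign also turned when a library was left out, at -0.05 without control replicate 2 and -0.14 without cold replicate 2. gl15 messages are known targets of the microRNA miR172, and the 4 miR172 loci listed in the table had 0 fragments in every library. A floor of 3 fragments corresponds to 0.105 to 0.143 CPM by library totals. Reads that mapped to several places were left out, so these zeros do not show that the loci were silent.

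**Figure D2:**
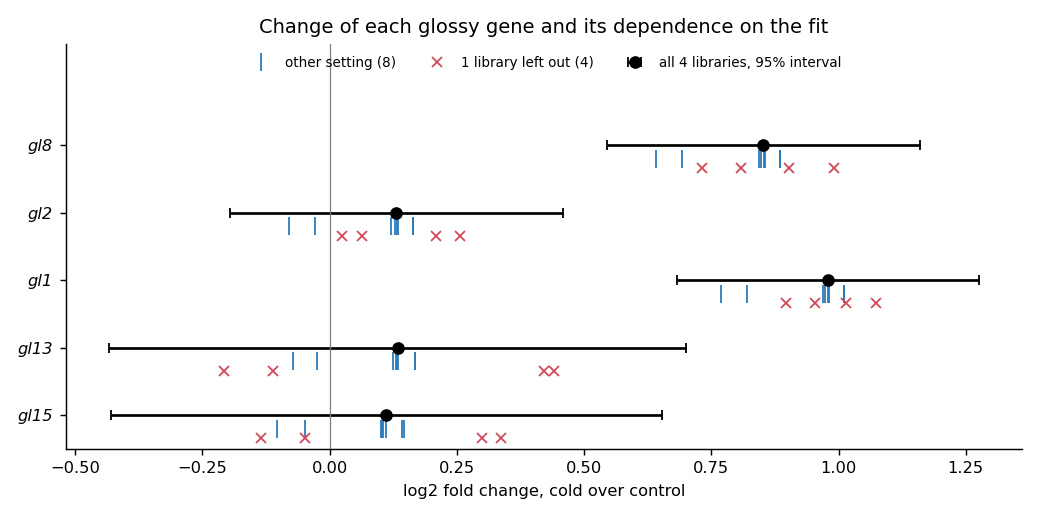
Log2 fold change (cold over control) of each glossy gene, with black points and bars for the fit on all 4 libraries and its 95% interval, blue ticks for 8 other settings and red crosses for fits with 1 library left out. The values of gl8 and gl1 stay between 0.64 and 1.07 throughout, while those of gl2, gl13 and gl15 fall on both sides of 0.

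The log2 fold changes of gl8 and gl1 stayed between 0.64 and 0.99 and between 0.77 and 1.07 over the 12 alternative fits, and both genes were called in every one. The scaling moves the log2 fold changes of all genes together. Their median was -0.03 with TMM factors, -0.19 with upper-quartile factors and -0.24 with library totals alone. gl1 stood 1.01 above the median and gl8 0.88 above it under TMM, RLE, upper-quartile and total-count scaling alike, as follows from how a scaling factor acts. Relative to that median, gl2 and gl13 stood 0.16 to 0.17 above it and gl15 0.14 above it under each of the 4. The share of mitochondrial transcripts, read as a sign of RNA quality, also moved with the group, at 0.0767% and 0.0703% of fragments in control and 0.134% and 0.112% in cold. Its part in the rise of gl8 and gl1 was not tested. These are whole seedlings, and a change in the proportion of epidermal cells or of leaf tissue cannot be told apart from a change in transcript per cell.

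**Figure D3:**
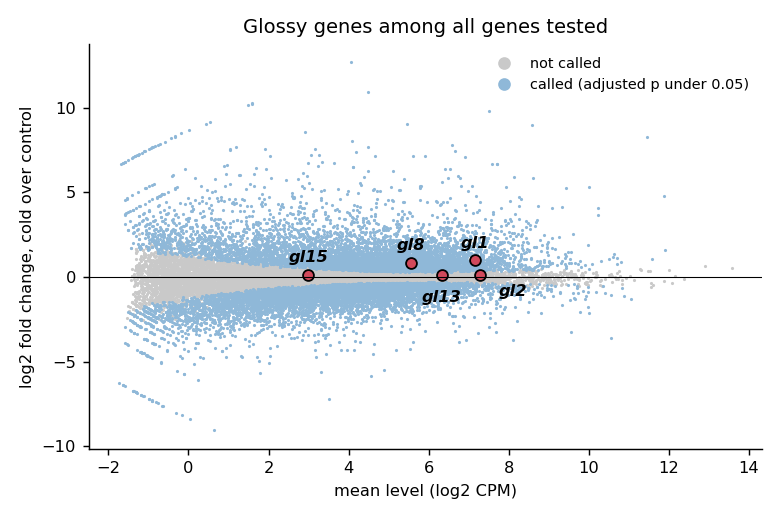
Log2 fold change (cold over control) against mean log2 CPM for all 23169 genes tested, grey where not called and blue where called at an adjusted p under 0.05, with the 5 glossy genes in red. gl8 and gl1 lie among the called genes, well inside the spread of changes, and gl2, gl13 and gl15 lie near 0.

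Levels can be set against each other between genes only per length, as TPM, a share of all transcripts after division by length, which were computed from the counts and the exon length of each gene. On this scale gl2 led the 5 genes in both groups, with 178 and 226 TPM in control and 228 and 188 TPM in cold. It was above 97.0% of tested genes in control and 96.9% in cold. gl1 came next, at 62.1 and 59.5 TPM in control and 116 and 110 TPM in cold, which moved it from above 88.4% to above 93.5% of tested genes. gl8 followed with 29.7 and 26.8 TPM in control and 48.7 and 47.4 TPM in cold, or above 76.0% and 83.9% of genes. gl13 had 16.8 and 26.7 TPM in control and 28.3 and 16.7 TPM in cold, and gl15 had 6.62 and 5.63 TPM in control and 5.51 and 6.96 TPM in cold.

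The order of the mean levels was the same in both groups, gl2, gl1, gl8, gl13 and gl15 from high to low. The libraries of neighbouring genes in that order did not overlap in either group, but gl8 and gl13 nearly touched in control, at 26.8 against 26.7 TPM. Their control means of 28.2 ± 2.02 and 21.7 ± 6.998 TPM (SD, n = 2 each) lay closer than the SD of gl13, so this pair did not differ beyond its spread. In cold, gl8 at 48.1 ± 0.921 TPM stood clear of gl13 at 22.5 ± 8.18 TPM. The order of this pair rests on the lengths used, 6053 bases merged from 254 exon records for gl13 and 2035 bases for gl8. Before division by length gl13 had the higher mean, at 76.8 against 33.8 CPM in control and 84.1 against 61.2 CPM in cold. The summed level of the 5 genes was 293 and 345 TPM in control and 426 and 369 TPM in cold. gl2 supplied 60.7% and 65.6% of that sum in control against 53.5% and 50.9% in cold. The share of gl1 went the other way, from 21.2% and 17.3% to 27.2% and 29.8%. Shares of a sum depend on each other, so the lower share of gl2 is not a fall in its level. The mean of gl2 was 202 ± 34.2 TPM in control and 208 ± 28.2 TPM in cold (SD, n = 2 each).

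**Figure D4:**
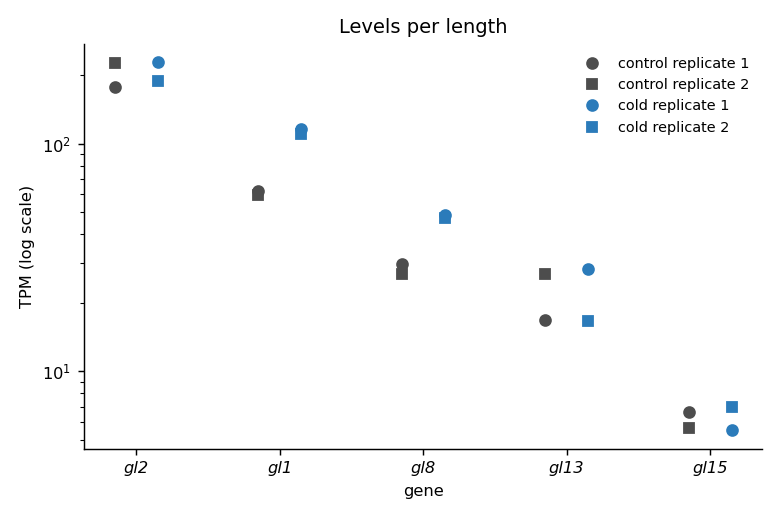
Level per length of each glossy gene in TPM (log scale) in each library, with control in grey, cold in blue, circles for replicate 1 and squares for replicate 2. gl2 is highest and gl15 lowest in every library, and the cold values are set apart upwards for gl1 and gl8.

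Ratios between glossy genes within a library do not depend on how libraries are scaled. Per length, gl2 exceeded gl1 by 2.86-fold and 3.80-fold in control and by 1.97-fold and 1.71-fold in cold, so the ratio was lower in both cold libraries. The ratio of gl8 to gl2 was 0.167 and 0.119 in control and 0.214 and 0.252 in cold, higher in both cold libraries. The ratio of gl8 to gl1, the pair that rose, was 0.478 and 0.451 in control and 0.421 and 0.431 in cold. It moved less (0.918-fold, cold over control), but it too was lower in both cold libraries. Of all 10 pairs of glossy genes, the ratios of 6 did not overlap between the groups and those of 4 did. The 4 were gl8 to gl13 and every pair among gl2, gl13 and gl15. For gl8 to gl13, control replicate 1 stood at 1.77, above cold replicate 1 at 1.72. These ratios are a description. With 2 libraries against 2 an exact two-sided permutation test cannot go below p = 0.333, whatever the values, and no other test of a difference in response between glossy genes was run.

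Among all other tested genes, the pattern most like that of gl1 over the 4 libraries belonged to Zm00001d022440, which lies on chromosome 7 (177716517 to 177723636, plus strand) and has 11 exons. Likeness was measured as the root mean square difference in log2 CPM after each gene was centred on its own mean, and was 0.0049. The levels of this gene were 116 and 104 CPM in control and 211 and 224 CPM in cold (log2 fold change 0.98, SE 0.13, edgeR adjusted p = 0.00071). As it was picked for its likeness to gl1, the match in log2 fold change follows from the choice. Its p-value is no independent evidence. Such likeness was common over only 4 libraries, with 464 genes within 0.1 of gl1 and 377 within 0.1 of gl8. The distance between gl1 and gl8 themselves was 0.070, and 168 other genes were closer to gl1 than gl8 was. gl13 had the least common pattern, with 48 genes within 0.1. No gene is named as most like a falling member, because no member had a negative log2 fold change with TMM factors.

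The 5 genes lie on 5 chromosomes, so none is a neighbour of another. The gene nearest to gl8 ends 244 bases from its 3′ end on the opposite strand and had 3.23 ± 0.764 CPM in control and 2.97 ± 0.343 CPM in cold (SD, n = 2 each, log2 fold change -0.12, edgeR adjusted p = 0.75). On the other side the nearest tested gene, 1.09 kb away on the same strand, had 9.91 ± 0.227 and 12.5 ± 1.33 CPM and was not called either (log2 fold change 0.34, edgeR adjusted p = 0.12). Both cold libraries of this second neighbour were above both control libraries, by less than the rise of gl8. Both nearest tested neighbours of gl15, 287 and 268 kb away, were also not called, with log2 fold changes of 0.14 and -0.01.

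gl1 has a neighbour with a far larger response than its own. The nearest tested gene before it lies 7.27 kb away on the minus strand (122218775 to 122221535), so that the pair is divergent and transcribed in opposite directions away from each other. It had 119 and 111 fragments in control against 6709 and 10281 in cold. The mean rose from 4.11 ± 0.207 to 419 ± 186 CPM (SD, n = 2 each), and the log2 fold change was 6.67 (SE 0.36, edgeR adjusted p = 2.2e-05). The nearest tested gene on the other side of gl1, 56.3 kb away, fell from 35.6 ± 0.296 to 13.3 ± 1.28 CPM (log2 fold change -1.42, edgeR adjusted p = 0.00016). gl2 and gl13, which were not called themselves, also lay between genes that were. The neighbours of gl2 had log2 fold changes of 0.61 and -0.90 (edgeR adjusted p = 0.033 and 0.012), and those of gl13 had -1.48 and 1.91 (adjusted p = 0.0013 and 0.042). The value of 1.91 (SE 0.66) rests on few fragments, 10 and 2 in control against 20 and 14 in cold. Of the 100 tested genes within 10 places of a member, 29 were called higher and 21 lower, close to the 27.0% of all genes called in each direction.

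**Figure D5:**
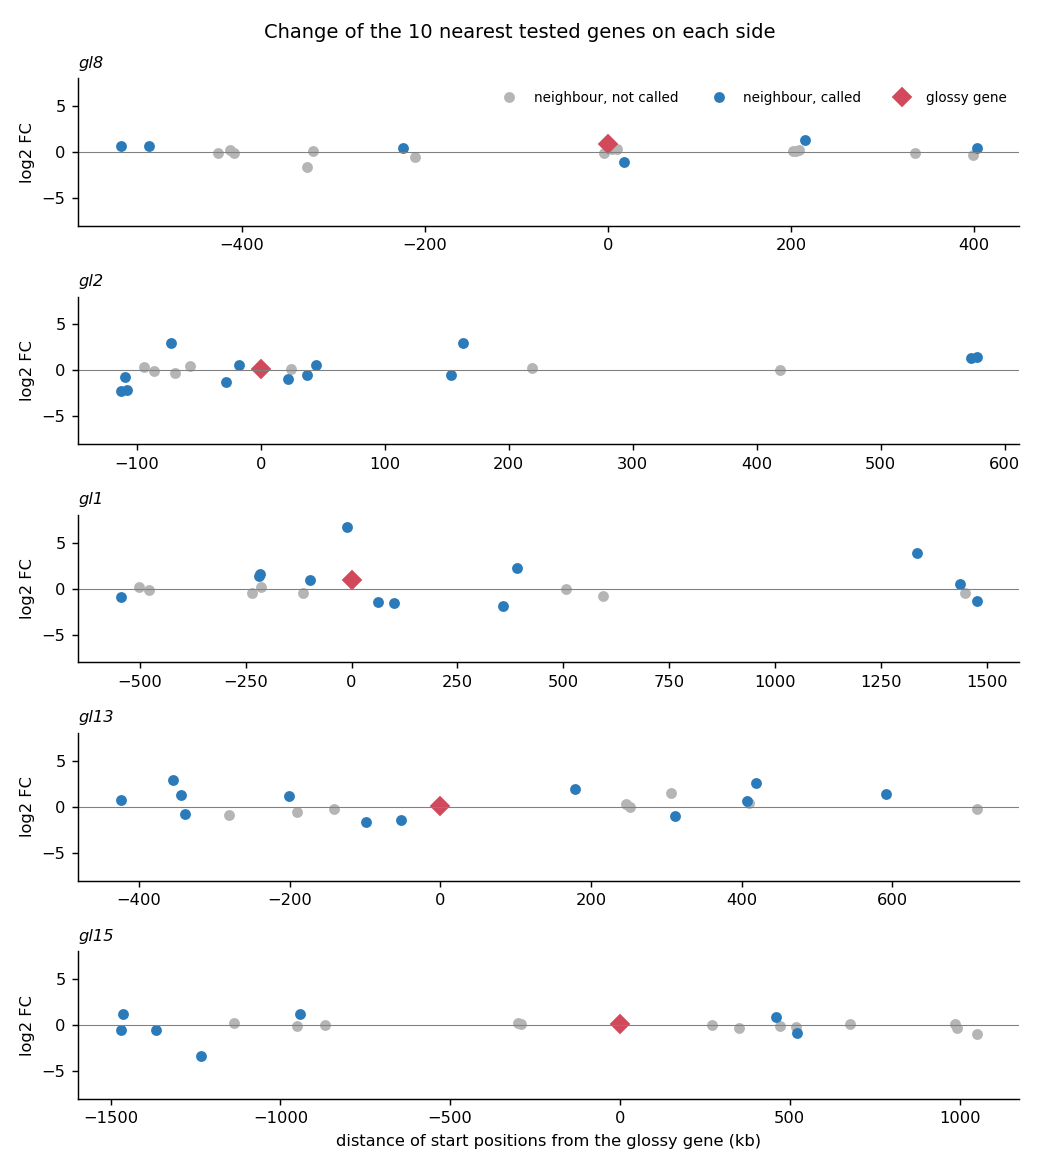
Log2 fold change (cold over control) of the 10 nearest tested genes on each side of each glossy gene, against the distance of their start positions in kb, with the glossy gene as a red diamond, called neighbours in blue and others in grey. The point at 6.67 beside gl1 stands apart from the other neighbours, which lie between -3.39 and 3.90 on this scale.

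The libraries held between 20942576 and 28493929 fragments assigned to genes. Of 10 plastid photosynthesis genes taken as markers of green tissue, 6 had a fragment in each library, with rbcL, the large subunit of Rubisco, highest at 286 to 449 fragments and psbB at 0 in all 4. All 10 together had only 505 and 398 fragments in control and 530 and 347 in cold. With so few, and with multiply mapped reads left out, these counts are a weak gauge of green tissue. Why they were so few was not tested. Of the 2 markers with enough fragments to test, rbcL was not called (log2 fold change 0.27, edgeR adjusted p = 0.20). The other, the photosystem I gene psaA, had 28 and 20 fragments in control against 55 and 43 in cold and rose with gl8 and gl1 (log2 fold change 1.44, edgeR adjusted p = 0.010). Its relation to their rise was not tested. Markers with too few fragments to test went both ways. From control to cold, psbA had 8 and 5 against 3 and 1, and atpB 11 and 5 against 3 and 5. psbD had 8 and 6 against 15 and 7. Nuclear markers of the epidermis, and the other wax genes, need names that the identifiers do not carry, and are not analysed here.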

How the data were processed

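The deposited values are raw gene counts. Per the file headers, the authors ran featureCounts 1.6.4 with release 43 of the B73 RefGen_v4 annotation, on read pairs, without strand and without multiply mapped or shared reads. The submitters' processing notes also name fastp and HISAT2, whose versions are not stated there. The deposited exon length of each gene is another value of the same table. Of 46430 genes, 23169 were kept by filterByExpr (minimum count 10, total 15), scaled by TMM and tested with edgeR 4.0.16 in R 4.3.3 (quasi-likelihood F test, two-sided, condition as the only term), with p-values adjusted over all of these and a threshold of 0.05. The test was checked on simulated data. Intervals of fold changes are 95% intervals from the SE and the fit's degrees of freedom. The 2 libraries of each group were set against each other with a chi-square statistic, for genes whose summed count was 20 or more. Intervals and floors of counts cover counting error only.

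The members and lists were chosen with earlier results of these data known. All 5 members are named, and the gene most like the member with the largest rise and with the largest fall; neighbours are described without a name. None of 44146 nuclear identifiers could be linked to the RefSeq table (0 matched), so the list of other wax genes was not tested, and promoter motifs were not searched. Alternatives were other scaling (RLE, upper-quartile, none), removal of the 20 most abundant genes, no filter or 5 CPM in 2 libraries, DESeq2 1.42.0, the replicate number as a block, and each library left out.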

Additional observations from a re-analysis of the deposited data

How the results depend on the processing

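gl8 and gl1 were called higher, and no glossy gene lower, under all 12 alternatives. At an unadjusted p under 0.05 edgeR also had 0 glossy genes lower, and DESeq2 called 0 lower. These 2 zeros carry no added weight, because all 5 log2 fold changes were positive in both fits. The sign of the uncalled genes was not stable. With upper-quartile factors the log2 fold changes were -0.029 for gl2, -0.026 for gl13 and -0.049 for gl15, and with library totals alone -0.080, -0.072 and -0.10. With 1 library left out they ranged from 0.02 to 0.26 for gl2, -0.21 to 0.44 for gl13 and -0.14 to 0.34 for gl15, against 0.73 to 0.99 for gl8 and 0.90 to 1.07 for gl1. The turns in sign under other scaling go with a shift of the all-gene median (-0.03 with TMM, -0.19 and -0.24 here), and the 3 genes stayed 0.14 to 0.17 above that median. The turns with a library left out went with the overlap of the control and cold libraries of gl13 and gl15. Why libraries of the same group differed in these genes was not tested. The lone library of a group is then assumed to vary like the others. Leaving out a library gave 4440 to 6341 genes called higher and 3978 to 6397 lower, the lowest counts without control replicate 2. With the replicate number as a block, the log2 fold changes were 0.86 for gl8 (edgeR adjusted p = 0.0024) and 0.98 for gl1 (adjusted p = 0.0016), and 5829 genes were higher and 5808 lower. The replicate differences of the groups correlated at -0.09 across genes, so the numbers are not taken to pair the libraries. The order of levels was the same by FPKM as by TPM, which follows within a library from their definition and is no independent check. With 2 libraries a group, the 95% intervals of gl13 and gl15 allow changes of up to about 1.6-fold, and for gl15 counting error reached 7.88% in a library.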
